A study of Mus musculus with 12 samples.

Results

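The MHC class I antigen presentation genes were examined in brain cortex of mice that had drunk ethanol and of water-drinking mice. The 9 genes were taken by their symbols from a count table of 33024 symbols. They were the class I heavy chains H2-K1 and H2-D1, their light chain B2m, the peptide transporter genes Tap1 and Tap2, the loading factor tapasin (Tapbp), the immunoproteasome subunits Psmb8 and Psmb9, and Nlrc5, a transcriptional activator of class I genes. All 9 were present in the table and all 9 were among the 16059 genes with enough counts to be tested.

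Class I molecules carry peptides of the cell's own proteins to the cell surface, where CD8 T cells and several inhibitory receptors read them. The proteasome cuts proteins into peptides, and immunoproteasome subunits take the place of the constitutive catalytic subunits under interferon. The transporter formed by the products of Tap1 and Tap2 moves peptides into the endoplasmic reticulum, where tapasin holds a heavy chain bound to beta-2-microglobulin until a peptide fits. In brain, class I transcripts are found in microglia, endothelial cells and some neurons, and neuronal class I molecules have been tied to synapse pruning and plasticity.

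RNA was sequenced from the cortex of 12 C57BL/6 mice, 7 Control and 5 EtOH. Mice of both groups were 30 days old at the start, which was followed by 35 days of two-bottle choice drinking in the dark and 14 days of abstinence (Arm 2), with behavioural tests before tissue was taken. EtOH mice could drink 20% (v/v) ethanol or water during 12 h of each night, whereas Control mice, labelled as vehicle, received water in both bottles. Voluntary drinking leaves the dose to each mouse, all mice were perfused with saline before dissection, and each library is bulk tissue of 1 mouse, in which fewer cells of a type and less RNA per cell cannot be told apart.

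Libraries held 31768076 to 42183029 counts each, so that 3 counts, taken as the floor, correspond to at most 0.0962 CPM (counts divided by the library's total, scaled to a common depth with trimmed-mean, or TMM, factors). Markers of cortical neurons were present in both groups, with summed levels of 2629 to 3180 CPM in Control and 2535 to 3122 CPM in EtOH mice, but 6 of 10 differed at an adjusted p under 0.05, 4 of them higher and 2 lower in EtOH mice. Markers of other brain regions also differed between the groups. All 12 of 12 markers of striatal neurons were lower in EtOH mice (summed levels 1310 to 2951 CPM in Control and 379.9 to 486.2 CPM in EtOH mice), 7 of 9 tested hippocampal markers were higher, all at an adjusted p under 0.05, and choroid plexus markers summed to 8.15 to 22.7 CPM in Control mice but to 127, 1013 and 285 CPM in EtOH mice 1, 3 and 4. Results that lead the text were also taken without these 3 EtOH libraries, an alternative chosen after the data had been seen. It does not remove the striatal or hippocampal differences. EtOH mice 2 and 5, which it keeps, had striatal sums of 379.9 and 411.8 CPM. Hippocampal sums were 187.1 to 297.9 CPM in Control and 355.3 to 414.8 CPM in EtOH mice. The tissue taken and the drinking cannot be told apart in these libraries, and the part of either was not tested.

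Transcripts of the assembled class I molecule were lower in EtOH mice, while those of the peptide supply were not shown to differ. H2-K1 decreased by 20.8%, H2-D1 decreased by 28.01% and B2m decreased by 21.5%, each at an adjusted p under 0.05 (edgeR's quasi-likelihood test, Benjamini-Hochberg adjustment over all genes tested). The study also asked for a log2 fold change above 0.5 in size, which none of the 3 reached, so that 0 of 9 genes were called higher and 0 of 9 lower under the full rule, where 4.20% and 4.09% of all genes tested were called (8.29% in either direction). The count of genes called lower was 1, H2-D1, without Control mouse 7 or without EtOH mouse 1. It was also 1, again H2-D1, with both deepest libraries left out or with the replicate number as a block. With no fold minimum, 3 of 9 were lower and 0 of 9 higher, against 11.6% and 12.1% of all genes. All 9 fitted log2 fold changes were below 0, with a median of -0.17, beside a median of 7.21e-05 over all genes, of which 49.99% were below 0. The signs of Psmb8 and Nlrc5 are not settled, since they turned positive in 5 and 4 of 12 fits with a mouse left out, and Tapbp had 0.0105 without the 3 choroid-rich EtOH libraries.

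**Figure D1:**
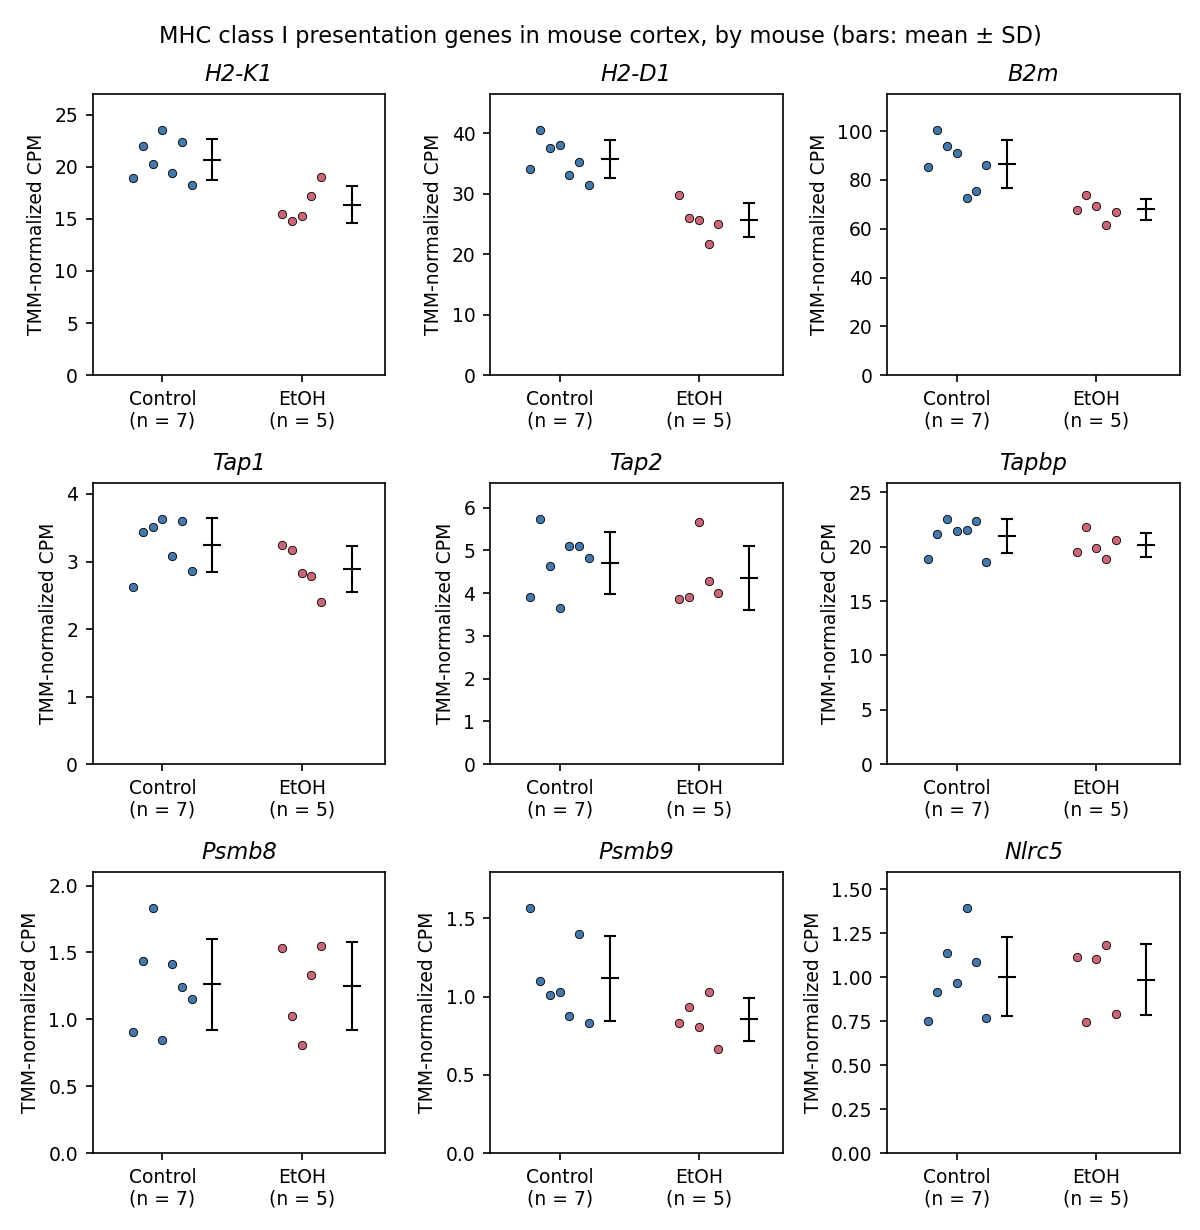
Level of each of the 9 genes in CPM scaled by trimmed-mean (TMM) factors, on a linear axis from 0, in 7 Control mice (blue) and 5 EtOH mice (red); each point is a mouse and bars give the mean ± SD. The groups separate fully for H2-D1, with 21.7 to 29.8 CPM in EtOH and 31.4 to 40.5 CPM in Control mice, overlap by 1 EtOH mouse for H2-K1 and B2m, and lie over each other for the other 6 genes.

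H2-D1 encodes a classical heavy chain and was the member with the smallest p. Its levels were 29.8, 26.0, 25.7, 21.7 and 25.0 CPM in EtOH mice 1 to 5, against a lowest, median and highest Control level of 31.4, 35.2 and 40.5 CPM. All 5 EtOH mice lay below every Control mouse, a separation towards lower EtOH levels that 4.96% of all genes tested showed (4.84% separated towards higher levels). The means were 35.7 ± 3.15 (SD, n = 7) and 25.6 ± 2.88 CPM (SD, n = 5), and the fitted log2 fold change was -0.47 (SE 0.0786, 95% interval -0.64 to -0.31, edgeR adjusted p = 0.000336).

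H2-K1, the other classical heavy chain of this strain, was measured at 15.5, 14.8, 15.3, 17.2 and 19.0 CPM in EtOH mice 1 to 5, with a Control range of 18.2 to 23.5 and a Control median of 20.3 CPM. EtOH mice 1 to 4 were below every Control mouse and EtOH mouse 5 was inside the Control range. The group means were 20.7 ± 1.98 (SD, n = 7) and 16.4 ± 1.74 CPM (SD, n = 5), and the fitted difference was -0.34 on the log2 scale (SE 0.0828, 95% interval -0.51 to -0.16, edgeR adjusted p = 0.00707).

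B2m encodes beta-2-microglobulin, the light chain that all class I heavy chains and most class I-like proteins need to reach the surface. EtOH mice 1 to 5 had 67.7, 74.0, 69.2, 61.6 and 66.9 CPM, and Control mice 72.7 to 100.3 with a median of 86.1 CPM. Again 4 of 5 EtOH mice were below every Control mouse, the exception being EtOH mouse 2, which stood above Control mouse 5. Means of 86.5 ± 9.81 (SD, n = 7) and 67.9 ± 4.47 CPM (SD, n = 5) gave a log2 fold change of -0.35 (SE 0.0754, 95% interval -0.51 to -0.19, edgeR adjusted p = 0.00299).

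These 3 differences kept an adjusted p under 0.05 in 20 of 20 alternatives, which changed the test, the scaling, the filter or the mice. Without the 3 EtOH libraries rich in choroid plexus markers, 2 EtOH mice remained: H2-D1 was at -0.49 on the log2 scale (edgeR adjusted p = 0.00729), whereas H2-K1 at -0.29 (edgeR adjusted p = 0.160) and B2m at -0.30 (edgeR adjusted p = 0.115) no longer passed.

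**Figure D2:**
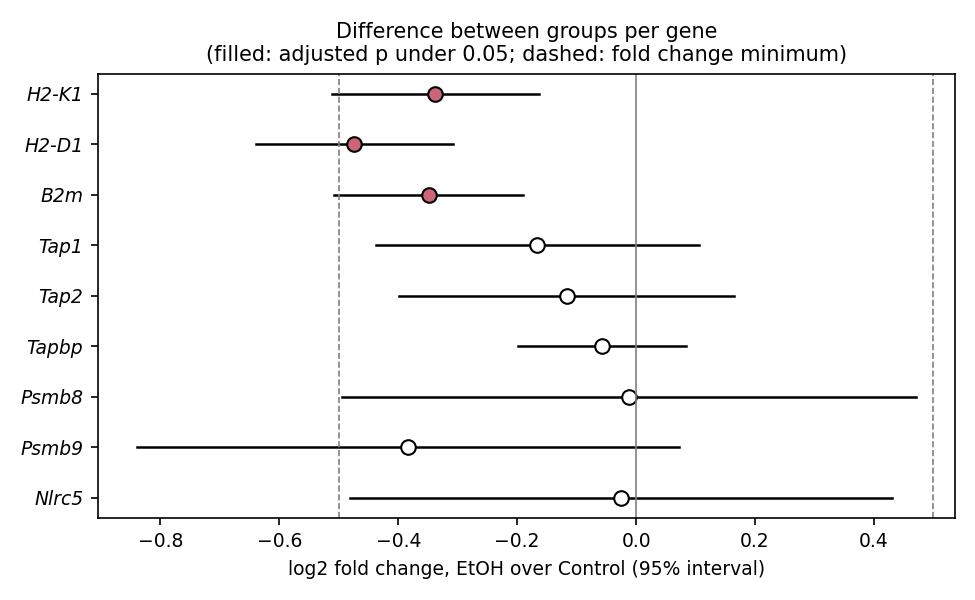
Fitted log2 fold change (EtOH over Control, horizontal axis) of the 9 genes with 95% intervals; filled points have an adjusted p under 0.05 and dashed lines mark the fold minimum of 0.5 in either direction. H2-K1, H2-D1 and B2m have intervals wholly below 0 at -0.34, -0.47 and -0.35, and the intervals of the other 6 genes include 0.

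Since H2-K1, H2-D1 and B2m were each lower in EtOH mice, the 250 bases before their transcription starts are shown. Those of Tap1, a gene of the same pathway that did not pass the test, are shown with them. The sequences are those of RefSeq on GRCm38.p6, an older build than the GRCm39 of the counts, written 5′ to 3′ on the gene's own strand. The table used held 7 of the 9 genes, all except Tap2 and Nlrc5, and for H2-K1 the first of its 2 listed starts is shown. Capitals mark matches, on either strand, to TGACG (the core of the class I X2 box), CCAAT (the Y box), a pair of GAAA with 2 bases between them, and the shorter GAANNGAAA, which was added after the sequences had been seen (both are pairs of the kind bound by interferon regulatory factors).
H2-K1, chr17:34000348-34000597, minus strand: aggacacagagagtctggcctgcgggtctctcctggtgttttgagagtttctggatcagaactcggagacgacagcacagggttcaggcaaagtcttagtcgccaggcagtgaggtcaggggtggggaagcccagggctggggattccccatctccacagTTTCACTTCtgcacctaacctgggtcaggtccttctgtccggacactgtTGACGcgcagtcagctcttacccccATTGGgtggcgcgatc
H2-D1, chr17:35262844-35263093, plus strand: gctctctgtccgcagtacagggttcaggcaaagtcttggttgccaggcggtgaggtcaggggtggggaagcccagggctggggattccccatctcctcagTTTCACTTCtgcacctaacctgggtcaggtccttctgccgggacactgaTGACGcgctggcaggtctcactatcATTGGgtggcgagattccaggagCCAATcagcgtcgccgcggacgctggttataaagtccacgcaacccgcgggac
B2m, chr2:122147437-122147686, plus strand: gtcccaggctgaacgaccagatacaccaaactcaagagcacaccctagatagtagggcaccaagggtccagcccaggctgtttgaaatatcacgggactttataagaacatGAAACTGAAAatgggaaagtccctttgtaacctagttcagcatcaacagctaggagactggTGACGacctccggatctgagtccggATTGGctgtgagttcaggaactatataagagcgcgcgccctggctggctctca
Tap1, chr17:34187306-34187555, plus strand: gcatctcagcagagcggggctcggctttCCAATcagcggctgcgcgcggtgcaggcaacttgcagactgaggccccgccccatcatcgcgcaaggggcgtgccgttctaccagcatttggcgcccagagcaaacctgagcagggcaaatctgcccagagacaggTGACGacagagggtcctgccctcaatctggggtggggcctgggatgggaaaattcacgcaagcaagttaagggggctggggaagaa

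In H2-K1, H2-D1 and B2m a TGACG was followed, with 20 bases between, by ATTGG, the reverse complement of CCAAT. This spaced pair, a pattern noticed in the printed sequences and so not independent of them, was found in 30 of 32851 promoters of the table (0.0913%) and in none of the other 4 members with a sequence. Among 32 H2 genes of the table it was held by 3, the third being H2-M3, a non-classical class I gene. H2-M3 did not pass (log2 fold change -0.47, edgeR adjusted p = 0.0725). H2-T23 and H2-T22 were not among the genes that held the pair, though both were lower in EtOH mice (-0.75 and -0.22, edgeR adjusted p = 0.000881 and 0.0464). Tap1 also held a TGACG and a CCAAT, but with the CCAAT upstream, 222 bases before the start, so that the letters alone are not particular to the 3 genes. Psmb9 held both 144 and 8 bases before its start. These are the same sites as those of Tap1 read on the other strand, since the upstream windows of Tap1 and Psmb9 share 225 bases. Of all promoters, 17.8% held TGACG, 33.8% CCAAT, 2.98% the pair of GAAA, 6.31% GAANNGAAA and 7.02% TTCNNNGAA (a core bound by STAT factors), the last being found among the members in Psmb8 alone. A match is a description of letters and was not tested as a binding site.

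The upstream sequences of H2-K1 and H2-D1 are near copies of each other. Their best local alignment had 161 of 177 columns identical (91%), with a longest shared run of 47 bases that 0 other promoters of the table held:
H2-K1 and H2-D1 shared run: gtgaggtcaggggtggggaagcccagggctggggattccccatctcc
The genes themselves lie apart in the MHC, H2-K1 at chr17:34214987-34219321 (minus strand) and H2-D1 at chr17:35481691-35486475 (plus strand), whereas B2m is at chr2:121977957-121983594 (plus strand, all GRCm39). The likeness extends into the transcripts: 30.4% of 50-base windows of the H2-K1 canonical transcript and 41.3% of those of H2-D1 also occur in a transcript of another gene, against 0% for B2m. These other genes include class I genes and, for H2-K1, Gm53999, the gene with which all of its shared 100-base windows (15.1%) were shared. Opposite-strand genes overlap 26.8% of the exon bases of H2-K1 (Gm53999) and 24.2% of those of H2-D1 (5430410E06Rik), and the strand setting of the counting is not given. The handling of reads that match more than 1 gene is not given in the sources used here, so the counts of both heavy chains are uncertain in this respect, while B2m shares no such window and no exon base.

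The share of H2-K1 in the sum of H2-K1 and H2-D1 counts was 35.1% to 38.9% in Control mice and 34.2%, 36.3%, 37.3%, 44.2% and 43.2% in EtOH mice 1 to 5. EtOH mice 4 and 5 were above every Control mouse and EtOH mouse 1 below. Over both groups the log2 ratio of H2-K1 to H2-D1 was -0.79 ± 0.0902 (SD, n = 7) and -0.65 ± 0.268 (SD, n = 5), a difference of 0.14 that did not pass (exact two-sided permutation test, p = 0.242, adjusted over 4 ratios 0.396; the smallest p possible is 0.00126). With 1 mouse left out the difference lay between 0.0622 (without EtOH mouse 4) and 0.215 (without EtOH mouse 1), being 0.0773 without EtOH mouse 5, and it did not pass in any of these cases.

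Tap1 and Tap2 encode the 2 subunits of the peptide transporter. Tap1 was measured at 3.25, 3.17, 2.83, 2.79 and 2.40 CPM in EtOH mice 1 to 5 and at 2.63 to 3.63 CPM (median 3.43) in Control mice. Of the EtOH mice only mouse 5 was below every Control mouse. The log2 fold change was -0.17 (SE 0.129, 95% interval -0.44 to 0.11, edgeR adjusted p = 0.373), an interval that still holds a decrease as large as that of H2-K1.

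Tap2 had 3.87, 3.92, 5.66, 4.28 and 4.01 CPM in EtOH mice 1 to 5 beside a Control range of 3.66 to 5.73 CPM (median 4.81). EtOH mouse 3 stood high among its group and all 5 EtOH mice lay inside the Control range. Its log2 fold change was -0.12 (SE 0.134, 95% interval -0.40 to 0.17, edgeR adjusted p = 0.563).

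Tapasin, the bridge between the transporter and the empty heavy chain, was the most precisely measured of the supply genes. Tapbp had 19.6, 21.8, 19.9, 18.9 and 20.6 CPM in EtOH mice 1 to 5 and 18.6 to 22.5 CPM (median 21.5) in Control mice, again with every EtOH mouse inside the Control range. The log2 fold change of -0.06 had an SE of 0.0670 and a 95% interval of -0.20 to 0.08 (edgeR adjusted p = 0.570). That interval does not reach the fitted value of H2-K1, H2-D1 or B2m, but it overlaps the intervals of H2-K1 and B2m. Differences between genes were not tested. Of Tapbp's exon bases 52.8% overlap another gene, among them Zbtb22 on the same strand, so that its counts may hold or lack reads of those genes.

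Psmb8 and Psmb9 encode the immunoproteasome subunits that replace Psmb5 and Psmb6, and both were close to 1 CPM. Psmb8 rested on 27 to 66 counts a mouse and had 1.53, 1.03, 0.805, 1.34 and 1.55 CPM in EtOH mice 1 to 5 against 0.844 to 1.83 CPM (median 1.24) in Control mice. Its log2 fold change was -0.01 (SE 0.229, 95% interval -0.50 to 0.47, edgeR adjusted p = 0.9753). Only EtOH mouse 3 lay outside the Control range, just below it.

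Psmb9, with 22 to 50 counts a mouse, had 0.834, 0.933, 0.805, 1.03 and 0.669 CPM in EtOH mice 1 to 5 and 0.834 to 1.57 CPM (median 1.03) in Control mice. EtOH mice 3 and 5 were below the Control range, and Control mice 1, 2 and 6 above every EtOH mouse. The log2 fold change of -0.38 was of the size seen for H2-K1 and B2m, but with an SE of 0.216 and a 95% interval of -0.84 to 0.07 it did not pass (edgeR adjusted p = 0.209). The interval holds 0 as well as the fitted values of H2-K1, H2-D1 and B2m. Psmb9 and Tap1 lie head to head with 225 bases between their RefSeq starts, 12.4% of Tap1's and 19.6% of Psmb9's exon bases overlap in the newer annotation, and the strand setting of the counting is not given, so that their reads may be shared.

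Nlrc5, at chr8:95160984-95253900 (plus strand, GRCm39), is the counterpart of Ciita for class I promoters. It had 1.11, 0.747, 1.10, 1.18 and 0.790 CPM in EtOH mice 1 to 5 and 0.751 to 1.39 CPM (median 0.969) in Control mice, from 24 to 57 counts a mouse. EtOH mouse 2 was just below the Control range and the others were inside it. The log2 fold change was -0.03 (SE 0.217, 95% interval -0.48 to 0.43, edgeR adjusted p = 0.946).

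Relative to the constitutive subunits, no shift towards the immunoproteasome was shown. The log2 ratio of Psmb8 to Psmb5 was -4.98 ± 0.355 in Control (SD, n = 7) and -4.85 ± 0.289 in EtOH mice (SD, n = 5; exact permutation test, adjusted p = 0.511). That of Psmb9 to Psmb6 was -5.81 ± 0.344 and -6.03 ± 0.171 in the same mice (exact permutation test, adjusted p = 0.396). The third immunoproteasome subunit, Psmb10, was much closer to its partner Psmb7, at -0.67 ± 0.158 and -0.76 ± 0.0484 (exact permutation test, adjusted p = 0.396). In all 3 pairs the groups overlapped.

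**Figure D3:**
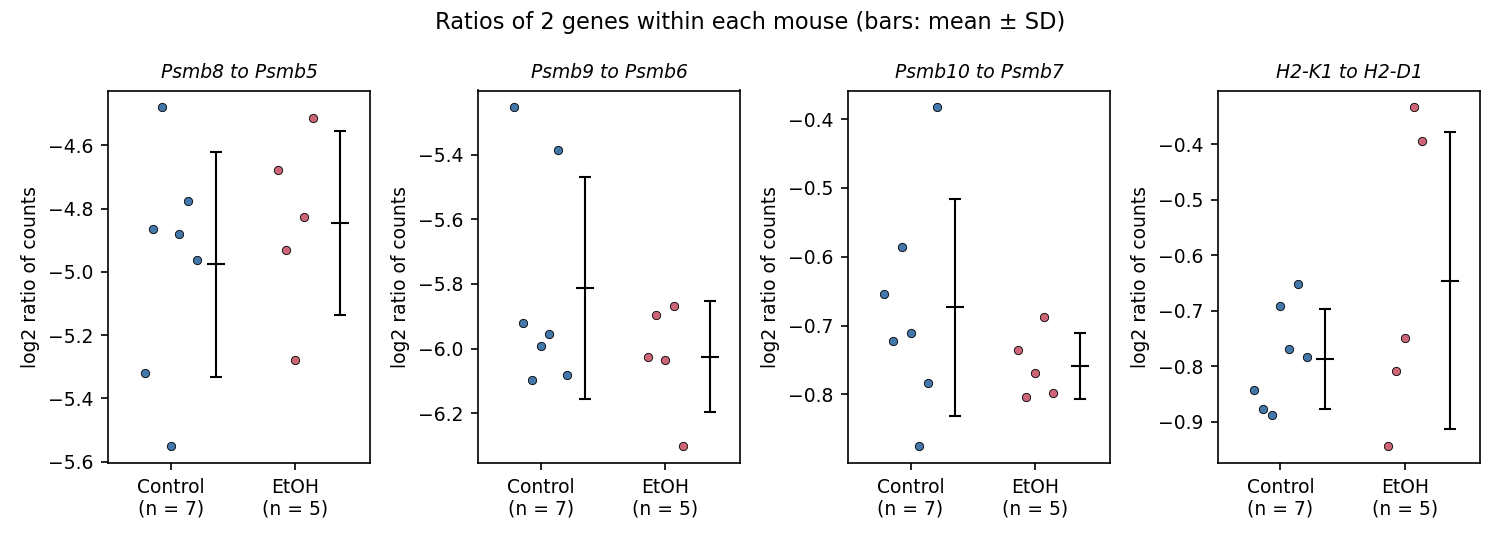
Log2 ratio of counts of 2 genes within a mouse (vertical axes, each with its own range and not starting at 0) for 3 immunoproteasome subunits over their constitutive partners and for H2-K1 over H2-D1; points are mice, and bars give the mean ± SD of 7 Control and 5 EtOH mice. All 4 pairs of groups overlap, and for H2-K1 to H2-D1 EtOH mice 4 and 5 sit above every Control mouse.

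Levels per kilobase of exon put the 9 genes in a steep order. In Control mice (mean ± SD, n = 7, CPM per kb of merged exons) B2m was highest at 41.1 ± 4.66, followed by H2-D1 at 11.9 ± 1.05, H2-K1 at 6.49 ± 0.621 and Tapbp at 4.76 ± 0.358. Well below these came Tap2 at 0.988 ± 0.151, Tap1 at 0.541 ± 0.0657, Psmb8 at 0.370 ± 0.0994, Psmb9 at 0.294 ± 0.0711 and Nlrc5 at 0.118 ± 0.0264. Neighbours in this order had separate ranges over the Control mice, except Tap1 and Psmb8, and Psmb8 and Psmb9, whose ranges overlapped. Tap1 was above Psmb8 in mean with canonical transcript lengths too (1.046 and 0.742). The order of Psmb8 and Psmb9 is not settled by these mice. The constitutive subunits stood far above their immunoproteasome partners, Psmb6 at 28.5 ± 2.59 and Psmb5 at 21.8 ± 1.74, whereas Psmb10 at 14.4 ± 1.40 was above Psmb7 at 6.60 ± 0.627. With canonical transcript lengths in place of merged exons, Psmb9 (0.826) came before Psmb8 (0.742), and Psmb7 (34.3) before Psmb10 (19.0).

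Among other class I heavy chains and class I-like genes, 13 of 19 were tested, of which 1 was called higher and 1 lower under the full rule, and 9 of 13 had a log2 fold change below 0 (median -0.22). With each mouse left out in turn the count called lower was 1 or 2, the second gene being H2-M3 (-0.47 with all mice, edgeR adjusted p = 0.0725) without Control mouse 5 or EtOH mouse 2. H2-T23 encodes Qa-1, a non-classical molecule that presents class I leader peptides to receptors of NK and CD8 T cells. It fell in EtOH mice, where its mean was 8.89 ± 1.54 CPM (SD, n = 5) against 15.0 ± 3.01 CPM in Control mice (SD, n = 7). EtOH mice 1 to 5 had 10.2, 10.3, 7.16, 7.34 and 9.39 CPM, all below the lowest Control mouse at 11.2, with a Control median of 13.5 and a highest value of 19.6 CPM. Its log2 fold change was -0.75 (SE 0.139, edgeR adjusted p = 0.000881), it was called in 20 of 20 alternatives, and it lost the call without the 3 EtOH libraries rich in choroid plexus markers (-0.61, edgeR adjusted p = 0.0565). Of its 50-base windows 42.4% occur in other genes' transcripts, among them those of H2-D1 and H2-K1.

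H2-Q2 went the other way, at a very low level. EtOH mice 1 to 5 had 0.997, 0.622, 0.954, 0.607 and 0.882 CPM, all above the Control mice, which ranged from 0.188 to 0.415 CPM with a median of 0.316. Means of 0.296 ± 0.0744 (SD, n = 7) and 0.812 ± 0.185 CPM (SD, n = 5) gave a log2 fold change of 1.46 (SE 0.258, edgeR adjusted p = 0.000603), called in 19 of the 19 alternatives in which it was tested and at 1.34 without the choroid-rich libraries (edgeR adjusted p = 0.0439). H2-T22, a relative of H2-T23 next to it on chromosome 17, had a log2 fold change of -0.22 (SE 0.0763, edgeR adjusted p = 0.0464), under the fold minimum, and kept its adjusted p in only 8 of 20 alternatives. The other tested genes of this list did not pass. Closest was H2-T24, which was higher in EtOH mice (0.37, SE 0.133, edgeR adjusted p = 0.05004), with 3 EtOH mice above every Control mouse.

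Other steps of the class I pathway gave no calls. Of 11 chaperones and peptidases of peptide loading 0 were called in either direction (0 also with no fold minimum, median log2 fold change -0.07). The smallest p were those of Hspa5, an endoplasmic reticulum chaperone (-0.34, SE 0.133, edgeR adjusted p = 0.0725), and Thop1, a cytosolic peptidase (-0.12, SE 0.0542, edgeR adjusted p = 0.109). Likewise 0 of 9 proteasome subunits and activators were called with or without the fold minimum (median -0.11), led by Psmb6 (-0.15, edgeR adjusted p = 0.0955) and the assembly factor Pomp (-0.17, edgeR adjusted p = 0.149), while Psmb5, Psmb7 and Psmb10 had -0.14, -0.07 and -0.15.

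Of 13 transcriptional regulators of class I genes 0 were called under the full rule (median -0.07). Nfya, a subunit of the factor that binds the CCAAT box, was lower with no fold minimum (24.4 ± 2.05 CPM, SD, n = 7, and 20.4 ± 2.89 CPM, SD, n = 5), a log2 difference of -0.26 (edgeR adjusted p = 0.0421). Rfx5, which binds the X box, had 0.21 (edgeR adjusted p = 0.0737). Of 33 interferon receptors, signal carriers and interferon-stimulated genes 30 were tested, and 0 were called in either direction (median -0.15). With no fold minimum 2 were higher, the receptor chain Ifnar1 (0.17, edgeR adjusted p = 0.0345) and the kinase Tyk2 (0.23, edgeR adjusted p = 0.0431), neither of them an interferon-stimulated gene of the list. In 4 of 12 cases with a mouse left out, 1 interferon-stimulated gene was called lower, Rtp4 without Control mouse 6, Ifit3 without EtOH mouse 1, Xaf1 without EtOH mouse 2 and Ifi35 without EtOH mouse 3. Ifit3 was also called lower with both deepest libraries left out (-0.65, edgeR adjusted p = 0.00387).

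In the class II pathway 11 of 11 genes were tested and 1 was called. Ciita, the class II transactivator, rose in EtOH mice, with means of 2.29 ± 0.584 CPM (SD, n = 5) against 1.40 ± 0.390 CPM in Control mice (SD, n = 7), and its log2 fold change was 0.71 (SE 0.218, edgeR adjusted p = 0.0251). Its call was lost without Control mouse 3 and without EtOH mouse 1, 4 or 5, with adjusted p up to 0.0754, and without the choroid-rich libraries (0.63, edgeR adjusted p = 0.246). Ctss, a lysosomal protease that trims the invariant chain, was at -0.30 on the log2 scale (edgeR adjusted p = 0.00705), under the fold minimum. The list's median was -0.25. Of 9 listed genes whose products bind or associate with class I molecules 8 were in the table and 2 had counts enough to be tested, the receptor Pirb (-0.30, edgeR adjusted p = 0.420) and Insr, the insulin receptor (0.13, edgeR adjusted p = 0.180).

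**Figure D4:**
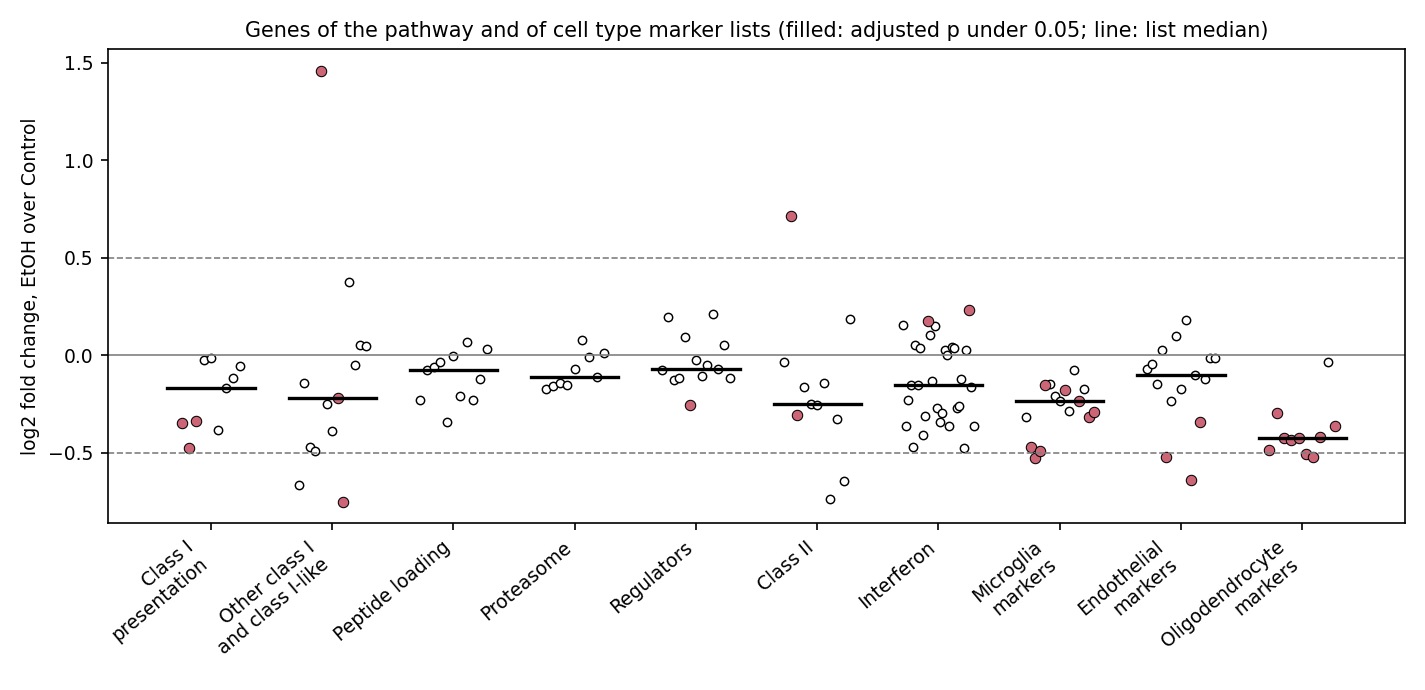
Fitted log2 fold change (EtOH over Control, vertical axis) of each tested gene in the 9 class I presentation genes, 6 further pathway lists and 3 cell type marker lists; filled points have an adjusted p under 0.05, horizontal bars are list medians and dashed lines the fold minimum of 0.5. Filled points below 0 are 3 of 9 among the class I presentation genes, 8 of 15 among microglia markers and 9 of 10 among oligodendrocyte markers.

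Markers of several cell types differed beside H2-K1, H2-D1 and B2m. Over all genes tested, 23.7% had an adjusted p under 0.05 in either direction (11.6% lower and 12.1% higher). The share of endothelial markers below is near that of all genes in either direction. Microglia markers had log2 fold changes below 0 in 15 of 15 genes (median -0.24), of which 8 had an adjusted p under 0.05 and 1, the complement gene C1qb, was called under the full rule. Their summed level was 461.9 to 521.5 CPM in Control and 391.9 to 420.1 CPM in EtOH mice, without overlap. Tmem119 had -0.32 (edgeR adjusted p = 0.00206), Cx3cr1 -0.15 (edgeR adjusted p = 0.0547) and P2ry12 -0.07 (edgeR adjusted p = 0.518). Endothelial markers were below 0 in 12 of 15 genes (median -0.10, 3 at an adjusted p under 0.05), with Ly6c1 and Emcn called lower under the full rule, Cldn5 at -0.15 (edgeR adjusted p = 0.320) and summed levels of 445.6 to 507.1 and 423.9 to 436.4 CPM, again without overlap. Oligodendrocyte markers were below 0 in 10 of 10 (median -0.42, 9 at an adjusted p under 0.05) and summed to 4644 to 6154 and 3109 to 5545 CPM. Of 10 astrocyte markers 4 were higher and 1 lower at an adjusted p under 0.05 (median 0.17), and Gfap, the filament protein of reactive astrocytes, was called higher (0.77, edgeR adjusted p = 3.15e-05), with summed levels of 3714 to 4255 and 4005 to 4557 CPM. Of 8 meningeal markers 1, Dcn, was called higher (1.87, edgeR adjusted p = 6.38e-05), with summed levels of 39.5 to 56.3 and 32.3 to 106.7 CPM.

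Counts of H2-K1, H2-D1 and B2m were also set against the microglia, endothelial and oligodendrocyte sums within each mouse, an alternative added after the data had been seen. These sums were themselves lower in EtOH mice, with log2 differences of -0.25, -0.15 and -0.48, which by itself raises the ratios. Astrocyte and cortical neuron sums were not used. Against the microglia sum, the log2 ratio of H2-D1 was lower in EtOH mice by a difference of -0.22 (exact two-sided permutation test, p = 0.00884, adjusted over 9 ratios 0.0398), whereas H2-K1 had -0.08 (exact permutation test, adjusted p = 0.442) and B2m -0.09 (exact permutation test, adjusted p = 0.384). Against the endothelial sum the differences were -0.33 for H2-D1 (exact permutation test, adjusted p = 0.0398), and -0.19 for both H2-K1 and B2m (exact permutation test, adjusted p = 0.142 for each). Against the oligodendrocyte sum they were 0.00, 0.14 and 0.14 for H2-D1, H2-K1 and B2m (exact permutation test, adjusted p = 0.989, 0.501 and 0.409). The part of these cells in the differences of the 3 genes was not tested.

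Lymphocyte markers were low, with summed levels of 0.342 to 0.861 CPM in Control and 0.334 to 0.699 CPM in EtOH mice, Cd3e at most 0.188 CPM and Gzma at 0 in all 12 mice. The only one of the 10 with counts enough to be tested was Cd79a, at a mean of 0.341 CPM in Control and 0.353 CPM in EtOH mice. Perivascular macrophage and myeloid markers summed to 7.38 to 12.99 and 3.08 to 10.8 CPM, and 2 of 5 tested genes, Cd163 and F13a1, were called lower.

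Among the 7 Control mice, levels of the 9 genes varied together only loosely. Of 36 pairs 25 had a positive Pearson's r (median 0.221, range -0.449 to 0.874), 3 had a p under 0.05 by exact permutation, and 0 held after Benjamini-Hochberg adjustment over the 36 pairs, for Pearson's r and Spearman's rho alike. H2-K1 and Tap1 had an r of 0.863 (exact permutation test, p = 0.0181, adjusted 0.326) and a rho of 0.929 (exact permutation test, p = 0.00675, adjusted 0.243), and r was 0.828 without the 2 mice farthest from the median. Tap1 and Tapbp had an r of 0.874 (exact permutation test, p = 0.0198, adjusted 0.326) and a rho of 0.643 (exact permutation test, p = 0.139, adjusted 0.714), and without the 2 farthest mice r was 0.324, so that this relation rests on those mice. H2-D1 and B2m had an r of 0.693 and H2-K1 and B2m of 0.248 (exact permutation test, p = 0.0881 and 0.569).

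The genes whose levels followed the mean of the 9 genes most closely, over 12 mice centred on their group means and among 14165 genes of at least 1 CPM, were Kcnj8 (r = 0.862), Xab2 (0.836), Scarf2 (0.833), Mafa (0.830) and Snrnp40 (0.8293). These values are descriptions over the same 12 libraries and carry no test.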

How the data were processed

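Cortex RNA of 12 mice was analysed, 7 Control and 5 EtOH, grouped by their labels. The authors had libraries sequenced by BGI, checked reads with FastQC 0.11.9, aligned them to GRCm39 with STAR and Gencode release 28, and counted them with featureCounts. They deposited expected counts per gene symbol, with no normalization. Values were not whole for 61 symbols, and all counts were rounded. Strand, multi-mapping and read length settings are not given in the sources used here. Genes passing edgeR's filterByExpr (16059 of 33024 symbols) were fitted with edgeR 4.0.16 (R 4.3.3, limma 3.58.1; TMM factors, quasi-likelihood test, group only), and p-values were adjusted over all of them. The study's thresholds defined a call: adjusted p under 0.05 with a log2 fold change past 0.5 in either direction. Log2 CPM used a prior count of 2. Ratios within a mouse used a pseudocount of 0.5 and exact two-sided permutation tests over the 792 assignments of 12 mice. Each library is 1 mouse. Replicate pairs were no copies of each other (chi-square per degree of freedom at least 7.84 in 31 pairs). Counting intervals and floors cover counting error only.

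The 9 genes and all lists were chosen with earlier results of these data known. Named were all 9 genes, called genes of each pathway list (or, where fewer than 2 were called, the 2 of smallest p), paired proteasome subunits, defining cell type markers, and the 5 genes most like the mean of the 9. H2-T22, H2-T24, H2-M3, C1qb, Ly6c1, Emcn, Cd163, F13a1, Gzma, Cd79a, Gfap, Dcn, Rtp4, Ifit3, Xaf1 and Ifi35 fall outside this rule and were chosen after their values were seen. A defining lymphocyte marker under the rule is not reported here. Positions are from Gencode mouse release 39 on GRCm39, and promoters from RefSeq on GRCm38.p6. Alternatives were limma voom, DESeq2 1.42.0, factors by upper quartile or relative log expression, filters of at least 1 count in any mouse or 10 in every mouse, the replicate number as a block, each mouse left out, both deepest libraries left out and other fold minimums. The fits were tested on simulated data.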

Additional observations from a re-analysis of the deposited data

Results flagged for a closer look

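The log2 CPM of Tap2 in EtOH mouse 3 was 2.517, and the next highest EtOH mouse had 2.12. Its gap to that mouse was 0.738 of the range of its group, a sample far from the others. This was 1 of 26 group checks over the 9 genes and the ratios, and chance flags about 1 in 20 groups, or 1.3 of 26. Without EtOH mouse 3 the log2 fold change of Tap2 was -0.23, still without an adjusted p under 0.05 (edgeR). In the other direction, it was -0.06 without Control mouse 2 and -0.05 with both deepest libraries left out.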

How the results depend on the processing

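H2-K1, H2-D1 and B2m had log2 fold changes of -0.40 to -0.30, -0.55 to -0.42 and -0.39 to -0.31 over 20 alternatives, with edgeR, DESeq2 or limma voom adjusted p up to 0.0236, 0.00181 and 0.0120, and the other 6 genes had an adjusted p under 0.05 in 0 of 20. With no fold minimum, 3 genes were lower in each of these alternatives. Under the full rule the count of 0 genes called lower became 1, H2-D1, with the replicate number as a block (-0.51) and with both deepest libraries left out (-0.55), and ranged from 0 to 1 when each mouse was left out, being 1 without Control mouse 7 (-0.50) and without EtOH mouse 1 (-0.53). It was 3 with no fold minimum. The replicate numbers do not pair the mice: deviations of same-numbered mice correlated at -0.108 to 0.0182.

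Without the 3 choroid-rich EtOH libraries, 1 of the 9 genes, H2-D1, was lower with no fold minimum, Tapbp had 0.0105 and Psmb8 0.0227, Nlrc5 moved from -0.03 to -0.39, Tap2 from -0.12 to -0.25 and Psmb9 from -0.38 to -0.48 with no adjusted p under 0.05 (edgeR), and 397 genes were called higher in place of 674. This alternative keeps 2 of 5 EtOH mice, and the cause was not tested. Over all genes, 1947 were higher and 1863 lower with no fold minimum, and 242 and 282 at a minimum of 1.

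The sign of Psmb8 and Nlrc5 is not settled. With each mouse left out Psmb8 ranged from -0.10 to 0.11 and Nlrc5 from -0.10 to 0.07, turning positive in 5 and 4 of 12 cases (Psmb8 at 0.0211, 0.0976, 0.0110, 0.0426 and 0.108, Nlrc5 at 0.00522, 0.0688, 0.0508 and 0.0418), and Nlrc5 was at 0.0329 without both deepest libraries. Psmb8, Psmb9 and Nlrc5 rest on 22 to 66 counts a mouse and have the widest intervals of the 9 genes.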
